A study of Mus musculus with 2 samples.

Results

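The Snrpn, Snurf and D7Ertd715e transcription unit lies on the (−) strand of mouse chromosome 7 and was read from the RNA tracks of 2 mouse embryo fibroblast (MEF) libraries. Its 3 members were chosen by name and position, out of 1719 annotated genes inside the deposited stretches, by a rule that uses no measured value. JXO MEFs had a JF1 mother and an OG2 father, and OXJ MEFs had an OG2 mother and a JF1 father. The OG2 line carries an EGFP transgene under regulatory sequence of *Pou5f1*, so the cells of both crosses could carry it. Each library came from cultured cells of 1 female embryo taken at 13.5 dpc, and with a lone library in each group no test was run and cross and embryo cannot be told apart.

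*Snrpn* and *Snurf* are encoded by a shared transcript of the imprinted Prader-Willi and Angelman region, which is made from the paternal chromosome. *Snrpn* encodes SmN, a relative of the SmB core protein of spliceosomal snRNPs that is most abundant in the brain, and *Snurf* encodes a small basic protein read from the first 3 exons. Further downstream the same strand carries snoRNA genes hosted in introns of a long noncoding transcript, *Snhg14*, of which *D7Ertd715e* is an older name. Upstream exons that feed into *Snrpn* are known from neural and germ cells. The parental allele is not marked in the tracks and was not analysed here.

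Levels are mean scaled depth on the (−) strand, that is, reads over a base after scaling to 50000000 aligned reads. A read over a base is worth 0.652 in JXO and 0.579 in OXJ. Brackets after a level hold its 95% exact Poisson interval on read pairs, which covers counting error only. The tracks hold 5837225 reads of JXO and 5785447 of OXJ in 618 stretches, only part of each library. Of the fibroblast markers, 3 of 16 lay inside the stretches: *Col1a2*, a chain of type I collagen, had a level of 583 in JXO and 388 in OXJ, and the small proteoglycan genes *Dcn* and *Lum* lay between 15.5 and 25.9. Of 13 neural markers 2 could be read. The intermediate filament gene *Nes*, made by progenitor and many cultured cells, stood at 340 and 155, and the transcription factor gene *Sox2* at 1.27 and 1.22. Markers of mature neurons lay outside the stretches, and the part of either cell type in the results was not tested.

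Both annotated starts were compared first, the main start at the first exon of *Snurf* and the start of the longer transcript far upstream. The 270 bases from 250 before to 20 after each start (mm9, (−) strand, 5′ to 3′) are shown because signal began at one and not at the other. Capitals mark ACGCATGCGT, the longest palindrome that both windows hold, looked for after the sequences were read.
main start, chr7:67150023-67150292: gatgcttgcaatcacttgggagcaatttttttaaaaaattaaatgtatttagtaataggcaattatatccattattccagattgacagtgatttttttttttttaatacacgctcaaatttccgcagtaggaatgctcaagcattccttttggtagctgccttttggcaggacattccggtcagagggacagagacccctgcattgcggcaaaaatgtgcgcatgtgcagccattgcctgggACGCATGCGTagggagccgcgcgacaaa
upstream start, chr7:67285086-67285355: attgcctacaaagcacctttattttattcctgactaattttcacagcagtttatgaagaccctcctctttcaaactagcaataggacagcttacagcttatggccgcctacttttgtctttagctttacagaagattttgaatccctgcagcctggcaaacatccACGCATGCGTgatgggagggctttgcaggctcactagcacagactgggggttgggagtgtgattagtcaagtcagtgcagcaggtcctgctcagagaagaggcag
It reads the same on both strands and lay at bases −8 to 2 of the main start and −85 to −76 of the upstream start, counted from 1 at the start. Among 32851 RefSeq promoter windows of the same length (GRCm38.p6), 30 held it (0.0913%), of which 3 belong to *Snrpn* and 1 to *Snhg14*. The main window had 10 CG dinucleotides and the upstream window 3, against a median of 6. A match is a description of letters and not a binding site.

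RNA began at the main start. The first base with a read lay 20 bases inside the annotated start in JXO and 27 in OXJ. Between the main and the upstream start, over 135063 bases, the (−) strand held 2 reads in JXO and 1 in OXJ. Neither upstream exon (chr7:67285027-67285105 and chr7:67277136-67277283) had a (−) strand read in either library. Over both exons together a count of 0 allows a level of up to 1.72 in JXO and 1.53 in OXJ, so transcription below that level was not detectable at this depth. The upstream introns stood at 0.000967 (2.45e-05 to 0.00539) in JXO and at 0.000429 (4.22e-07 to 0.00401) in OXJ. The (+) strand of this stretch had 6 reads in OXJ and none in JXO.

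The exons of the main transcript were covered in both libraries and nearly all RNA was in the sense orientation. Over all 10 exons and 1970 bases (*Snrpn*, ENSMUSG00000000948.9), the level was 13.7 (11.9 to 15.7) in JXO, from 412.7 reads, and 8.50 (7.17 to 10.0) in OXJ, from 289.2 reads. Read counts need not be whole because a read that crosses an edge counts in part. The tracks place further reads on a spliced copy of *Snrpn* on chromosome 14, described below, and with them added to the exons up to the poly(A) signal the counts are 620.7 and 513.7 in place of 409.7 and 285.7. The level of the 720 coding bases of *Snrpn* was 17.9 (14.6 to 21.8) in JXO and 11.7 (9.18 to 14.7) in OXJ. Exons 1 to 3, which hold the *Snurf* reading frame, stood at 17.5 (12.9 to 23.1) and 11.9 (8.40 to 16.4). The intervals of the *Snurf* and *Snrpn* parts overlapped within each library. In JXO 98.3% of the exonic read bases were sense and in OXJ 99.3%.

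Levels were uneven along the exons. Exon 4 (chr7:67133488-67133633), where the annotated *Snrpn* start codon lies, was highest in JXO with 31.2 (21.7 to 43.4), and had 17.9 (11.3 to 26.9) in OXJ. Exon 2 (chr7:67144204-67144299) was highest in OXJ with 19.0 (10.8 to 30.9), against 22.2 (12.7 to 35.8) in JXO. Of exons 2 to 9, exon 8 (chr7:67129911-67130049) was lowest in either library, with 8.40 (3.83 to 16.0) in JXO and 6.45 (2.74 to 12.8) in OXJ. The highest and the lowest of exons 2 to 9 differed 3.72-fold in JXO and 2.94-fold in OXJ. In both libraries the intervals of neighbours in the order of levels overlapped, so these counts do not fix the order. These levels also leave out the reads placed on the chromosome 14 copy, which were uneven by exon. In OXJ the copy had 23.8 reads per base over exon 2, 41.1 over exon 3, 28.8 over exon 6 and 0.0395 over exon 10. The order of exons can therefore change when they are added.

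**Figure D1:**
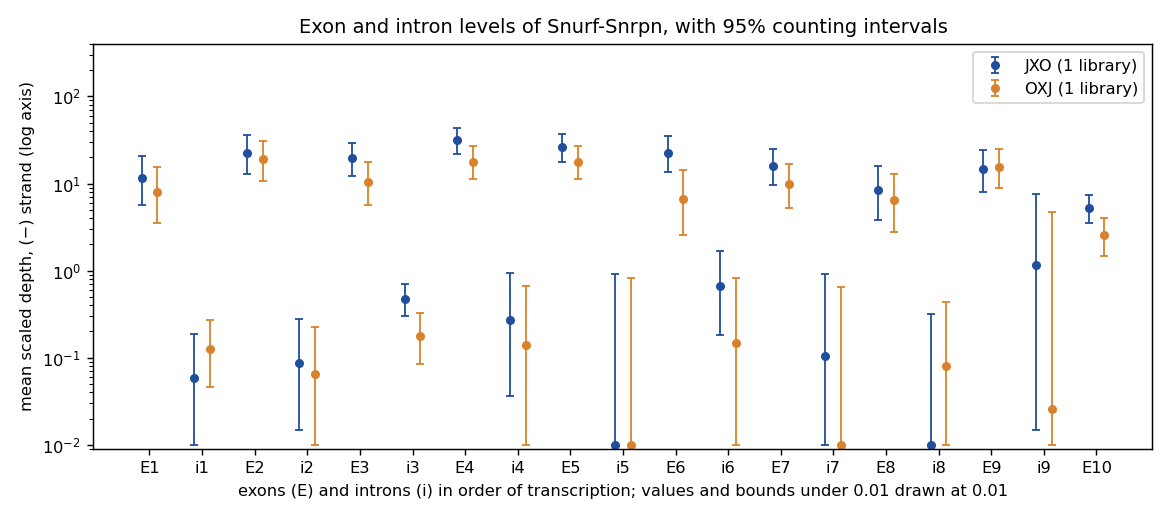
Mean scaled depth on the (−) strand (log axis) for the 10 exons and 9 introns in order of transcription, 1 library per cross, with 95% counting intervals as bars. Exons 1 to 9 lie between 6.45 and 31.2, and introns other than intron 9 of JXO stay below 0.67.

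Introns held little RNA. Over the 9 introns, 20685 bases, the level was 0.231 (0.162 to 0.319) in JXO and 0.121 (0.0756 to 0.184) in OXJ, so exons were 59.1-fold higher in JXO and 70.1-fold higher in OXJ. Intron 3 (chr7:67133634-67140291), the longest at 6658 bases and just before the exon with the *Snrpn* start codon, had the most intronic reads, 48.1 in JXO and 20.3 in OXJ. Its level of 0.471 (0.302 to 0.700) in JXO was above that of introns 1 and 2, at 0.0581 (0.00968 to 0.186) and 0.0880 (0.0149 to 0.279), with intervals that do not overlap. Introns 6 and 9 had higher levels in JXO, 0.667 (0.183 to 1.70) and 1.17 (0.0148 to 7.53), with intervals that overlap that of intron 3. In OXJ intron 3 stood at 0.177 (0.0852 to 0.323), with an interval that overlaps those of introns 1 and 2.

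Splicing could be read from the tracks because depth changes at once where spliced reads end an exon. Every annotated edge between exons, 18 of 18, showed a step in both libraries next to GT or AG on the (−) strand, with a minimum of 6 reads summed over the libraries. Donor and acceptor steps of a junction differed by at most 5 reads in JXO and 1 in OXJ. Steps averaged over donor and acceptor were smallest between exons 8 and 9, with 13 reads in JXO and 9 in OXJ, and largest between exons 5 and 6 in JXO (39.5) and exons 1 and 2 in OXJ (34.5). Set against the depth in the first 10 intron bases at either edge, the median share of spliced reads was 98.1% in JXO and 97.5% in OXJ, and the lowest was 91.2% (exon 9 to 10) and 92.3% (exon 8 to 9).

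The few (+) strand reads over exons 1 and 2 broke at the same edges. Steps of 3 reads in JXO and 2 in OXJ stood at both the exon 1 donor and the exon 2 acceptor on the (+) strand, where the dinucleotides are those of the (−) strand. At the other annotated junctions the (+) strand steps were 0, except for 1 read at exon 9 to 10 in JXO.

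Depth ended well before the annotated end of the last exon. Exon 10 (chr7:67127388-67128163) holds the stop codon at chr7:67128126-67128128 and, 103 bases further, the first AATAAA poly(A) signal at chr7:67128017-67128022. The 30 bases around it are shown since depth fell there, with the signal in capitals.
last exon, chr7:67128005-67128034: ttaactatagatAATAAAtacatagagcaa
Up to 20 bases past this signal exon 10 had a level of 23.0 (15.5 to 32.9) in JXO and 10.6 (5.96 to 17.4) in OXJ. The remaining 609 annotated bases had 0.326 (0.0243 to 1.38) and 0.331 (0.0317 to 1.29), which is 70.5-fold and 32.0-fold less. When these bases were left out, the level of all exons was 19.6 (17.02 to 22.5) in JXO and 12.2 (10.2 to 14.3) in OXJ.

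RNA resumed past the gene. From the annotated end to the edge of the *D7Ertd715e* window, chr7:67115506-67127387, the level was 4.35 (3.93 to 4.80) in JXO and 2.18 (1.91 to 2.49) in OXJ. The first 1048 bases stood at 0.932 (0.389 to 1.88) and 0.250 (0.0363 to 0.843), and the next 270 bases, chr7:67126070-67126339, had no (−) strand read in either library, which allows levels of up to 1.45 and 1.29.

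Below that bare stretch lay a block of 7187 bases, chr7:67118883-67126069, with 6.23 (5.59 to 6.93) in JXO and 2.88 (2.48 to 3.34) in OXJ. Reads covered 98.3% of it in JXO and 85.2% in OXJ. The block was 27.0-fold above the *Snrpn* introns in JXO and 23.8-fold in OXJ, and the exons up to the poly(A) signal were 3.15-fold and 4.21-fold above the block. Its 14 whole 500-base steps had levels of 4.28 to 8.06 in JXO and, in OXJ, of 1.66 to 4.46. All 14 were higher in JXO on the scaled depth and 13 of 14 at equal totals of the tracks, where most genes were higher too. Of its read bases 98.8% in JXO and 99.4% in OXJ were on the (−) strand.

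**Figure D2:**
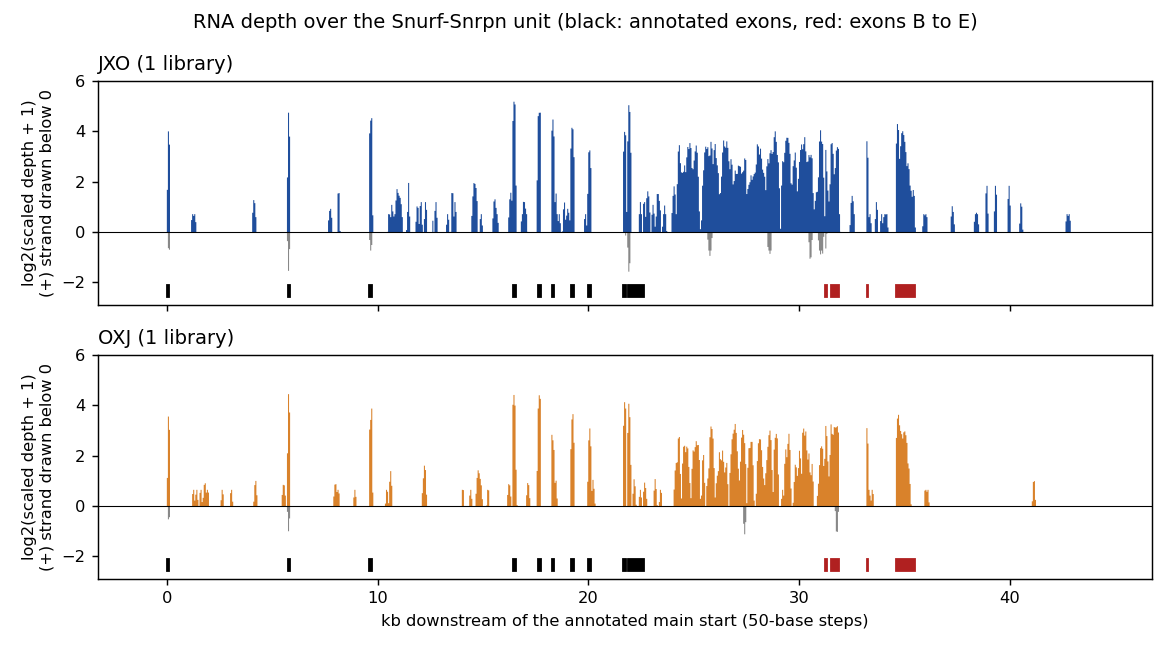
Depth in 50-base steps as log2 of scaled depth plus 1, with (−) strand RNA above 0 and (+) strand RNA below it, by distance from the annotated main start, 1 panel per library. Black boxes are the 10 annotated exons and red boxes the downstream exons B to E. Narrow exon peaks give way to a broad block of 6.23 in JXO and 2.88 in OXJ.

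Both annotated snoRNA genes of the unit lie inside this block, and their sequences are given because they are the named RNAs there. Capitals mark every TGATGA and CTGA, the letters of the C and D boxes that define this class of guide RNA.
SNORD107, chr7:67125762-67125831: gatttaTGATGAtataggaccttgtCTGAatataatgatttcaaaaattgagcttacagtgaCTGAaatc
Snord64, chr7:67123694-67123760: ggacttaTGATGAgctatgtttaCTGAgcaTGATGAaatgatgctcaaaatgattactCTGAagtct
SNORD107 had a level of 5.32 (1.04 to 15.9) in JXO and 3.47 (0.451 to 12.2) in OXJ, against 3.57 (2.36 to 5.17) and 1.95 (1.13 to 3.13) over 500 bases on either side. Of those flanking bases 262 lie in the bare stretch, and without them the flanks stood at 4.83 and 2.64. *Snord64* had 3.14 (0.262 to 12.9) and 2.46 (0.159 to 10.9), against flanks of 7.47 (5.67 to 9.68) and 2.88 (1.86 to 4.25). Intervals of gene and flanks overlapped for both, so no peak or dip over the snoRNAs was detectable. The snoRNAs, of 70 and 67 bases, are shorter than the 100-base reads, and the paper calls its method unsuited to small RNAs. The comparison therefore cannot show how much of the snoRNAs themselves was present.

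Between the lower part of the block and the *D7Ertd715e* position lay splice steps that the gene annotation used here does not hold. Past the gene 19 steps reached 6 reads. Of these, 11 stood beside neither GT nor AG and 8 beside them, where 5.94% of all bases searched lie next to a GT and 6.20% next to an AG. TopHat uses these dinucleotides to place spliced reads, so these shares cannot tell whether the 8 steps are splicing. The 8 were 4 donors and 4 acceptors in turn, and they bound exons named here B, C and D, with A the exon ending in the first donor and E the exon at *D7Ertd715e*. Each donor was paired with the next acceptor downstream, since depth does not show which edges a read joined. This chain was read after the data were seen, and its pairing is assumed. The 24 bases across each edge are given, 12 exonic and 12 intronic, with GT or AG in capitals.
junction 1 donor, chr7:67118871-67118894: acaaaaggaattGTaagaatatgt
junction 1 acceptor, chr7:67118774-67118797: tttgttggacAGtaagatagccaa
junction 2 donor, chr7:67118721-67118744: ttgcagcttaagGTgaatgtaatt
junction 2 acceptor, chr7:67118525-67118548: attattttacAGtaataattgaag
junction 3 donor, chr7:67118145-67118168: ataaaatttctgGTaagtattagt
junction 3 acceptor, chr7:67116819-67116842: tttatttttcAGgtgctcatgatg
junction 4 donor, chr7:67116754-67116777: tgaaaactagagGTaagaaaggat
junction 4 acceptor, chr7:67115418-67115441: gttctctctcAGgtggttaccgaa

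Junctions 3 and 4 were read much like those of *Snrpn*. Junction 3 spans an intron of 1326 bases and had steps of 18 and 19 reads in JXO and of 16 and 16 in OXJ. Its spliced share was 95.4% (Clopper-Pearson 74.0 to 99.9%) in JXO and 99.1% (lower bound 79.4%) in OXJ. Junction 4 spans 1336 bases with steps of 16 and 15 reads and of 10 and 10, and its spliced share was 95.7% (lower bound 79.4%) and 94.8% (58.7 to 99.8%).

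Spliced shares at junctions 1 and 2 were lower than at junctions 3 and 4. Reads covered 100% of the junction 1 intron in OXJ but 71.1% in JXO, where no read spanned it. The junction 2 intron was covered throughout in both libraries. Junction 1, across 97 bases, had steps of 15 and 12 reads in JXO but 4 and 2 in OXJ, for a spliced share of 86.5% (61.7 to 98.4%) and 40.5% (9.90 to 81.6%). Junction 2, across 196 bases, had 8 and 8 reads and 6 and 7, for 62.7% (31.6 to 86.1%) and 43.9% (16.3 to 67.7%). The intervals of the libraries overlapped at both junctions. Within each library they also overlapped those of junctions 3 and 4, except for junction 2 against junction 3 in OXJ.

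**Figure D3:**
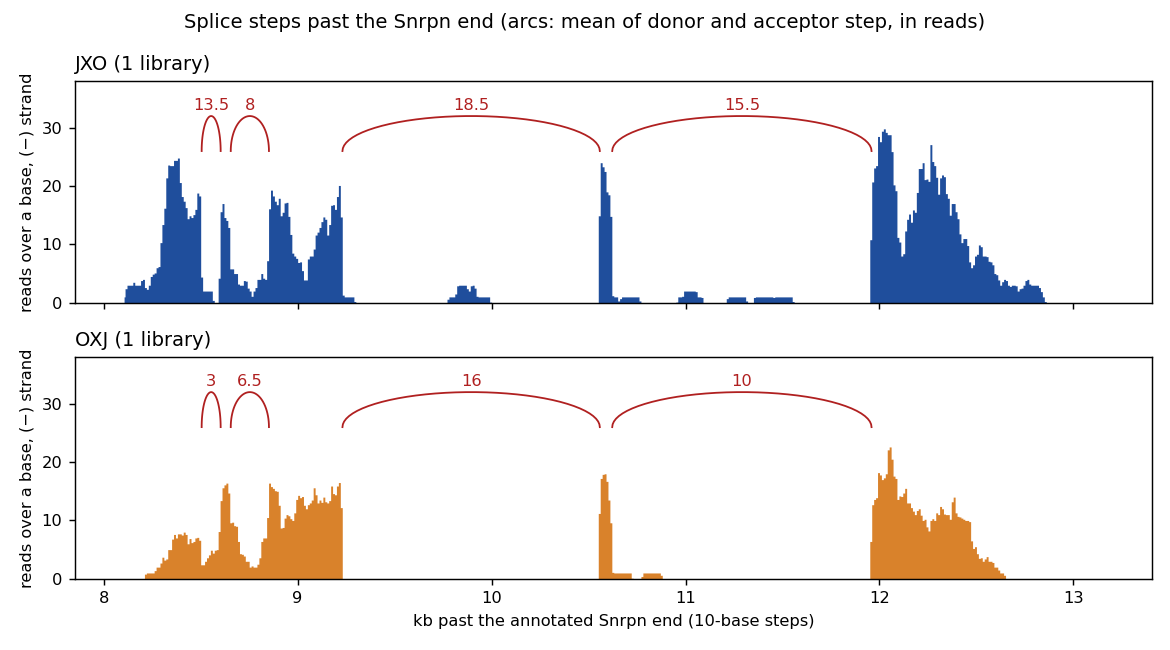
Reads over a base on the (−) strand in 10-base steps by distance past the annotated *Snrpn* end, 1 panel per library. Red arcs are the 4 junctions, each donor paired with the next acceptor by assumption, with the mean of their donor and acceptor step in reads. Depth drops to near 0 between exons C, D and E in both panels and stays above 0 over most of the introns before exon C.

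Exon D, chr7:67116766-67116830, is the shortest exon set off by long introns and is shown whole, beside exon B, chr7:67118733-67118785.
exon B: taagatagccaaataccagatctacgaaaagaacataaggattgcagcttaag
exon D: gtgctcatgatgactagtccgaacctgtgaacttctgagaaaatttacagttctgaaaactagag
Exon B had a level of 9.63 (2.58 to 24.9) in JXO and 8.74 (2.38 to 22.4) in OXJ. Exon C, chr7:67118157-67118536, had 8.43 (5.43 to 12.5) and 7.75 (5.04 to 11.4). Exon D had 13.7 (5.42 to 28.4) and 9.25 (3.09 to 21.3). Levels of exons B to D thus overlapped between the libraries and with each other.

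*D7Ertd715e* itself was read in the 1001 bases around its position, chr7:67114505-67115505, because GENCODE M1 has no entry of that name. The level was 7.51 (5.70 to 9.71) in JXO, from 115.3 reads, and 4.20 (2.94 to 5.80) in OXJ, from 72.6 reads, with no (+) strand read in either. All of its reads lay in exon E, which starts at the acceptor at 67115429 and was covered without a gap to 67114532 in JXO and to 67114738 in OXJ. Exon E holds 2 ATTAAA variants of the poly(A) signal, at chr7:67114827-67114832 and chr7:67114790-67114795, and no AATAAA.

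Over exons B to E the level was 8.68 (7.01 to 10.6) in JXO and 5.88 (4.59 to 7.42) in OXJ. That was 20.8-fold and 23.9-fold above introns 2 to 4 of the same chain. Because these exons were bounded by steps of the same depth, such a difference was built in and is no support for the chain. Intron 1, left out of that comparison, stood at 0.968 (0.00707 to 6.82) in JXO and 2.38 (0.287 to 8.61) in OXJ. The exons of *Snrpn* up to the poly(A) signal were 2.26-fold and 2.07-fold above exons B to E. In the next 10 kb the level fell to 0.143 (0.0716 to 0.257) in JXO, from 22 reads, and to 0.0232 (0.00280 to 0.0836) in OXJ, from 4 reads. From 10 to 40 kb below exon E 2 reads in JXO and 5 in OXJ remained.

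The ratio between the crosses was taken after the totals of the tracks were set equal, and its 95% interval is a conditional exact one on read pairs. At equal totals the median log2 ratio of JXO over OXJ over 718 genes with at least 40 reads was 0.30, with quartiles of 0.01 and 0.56, so values are best read against 0.30. Of these genes, 22.0% were more than 1.5-fold higher in JXO and 4.87% more than 1.5-fold lower. Exons of *Snrpn* had a log2 ratio of 0.50 (0.19 to 0.82), which is 0.20 above the gene median and under 1.5-fold. With the reads on the chromosome 14 copy added it was 0.26 (0.02 to 0.50), below the gene median. The summed steps of the 9 annotated junctions, 238 reads against 167, gave 0.50 (0.21 to 0.79). Here each step read counted as a pair, and a read across several junctions counted at each, so this interval may be too narrow. These reads are also among those of the exons and leave out the copy.

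Of the 10 exons, 9 were higher in JXO, and the interval left out 0 for 1 of them, exon 6 (chr7:67131658-67131769). The lower quartile of genes was 0.01, so most genes were higher in JXO too. The exons are parts of 1 transcript and not separate observations. Exon 6 had a level of 22.3 (13.4 to 34.7) in JXO and 6.69 (2.57 to 14.2) in OXJ, a log2 ratio of 1.55 (0.21 to 3.10), whose interval holds the gene median. *Snrpn* introns had 0.75 (−0.06 to 1.58). The covered block past the gene had 0.93 (0.66 to 1.197), 0.63 above the gene median and above 94.6% of the genes. The *D7Ertd715e* window, at 0.65 (0.03 to 1.30), was 1.57-fold higher in JXO, and exons B to E together had 0.38 (−0.08 to 0.84). The intervals of exons and block overlapped. With the reads on the chromosome 14 copy added, the exon ratio of 0.26 (0.02 to 0.50) had an interval wholly below that of the block. A difference in ratio between exons and block was not tested.

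**Figure D4:**
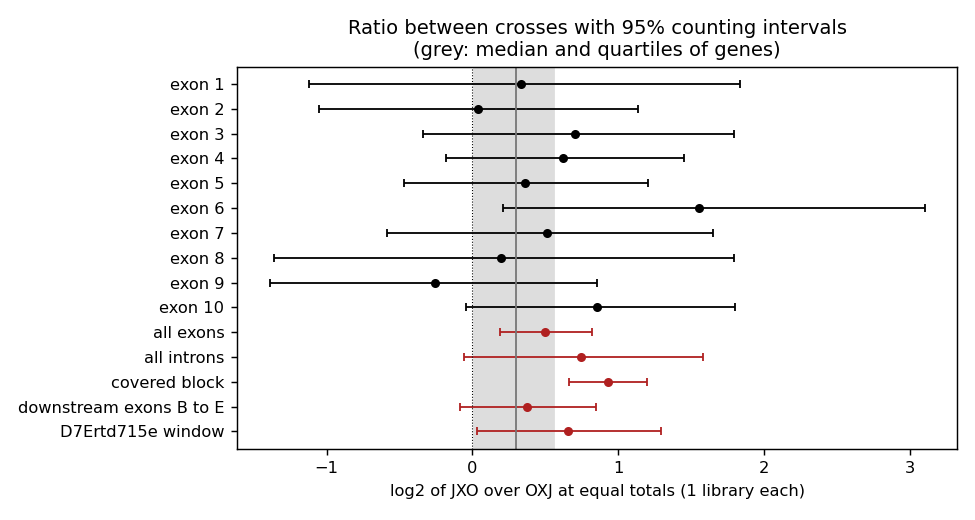
Log2 ratio of JXO over OXJ at equal totals for each exon (black) and for groups of elements (red), with 95% counting intervals, 1 library per cross. The grey band and line are the quartiles, 0.01 and 0.56, and the median, 0.30, of 718 genes. Of the red points, the covered block lies farthest to the right at 0.93.

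The tracks also place reads on a spliced copy of *Snrpn* elsewhere in the genome. Depth does not show from which locus a read was transcribed. The paper describes a *Snrpn* pseudogene on chromosome 14 and proposes that it is silent and that its reads come from *Snrpn* on chromosome 7. BLAST of the spliced main transcript found 4 copies at 75% identity or more, on chromosomes 14, 10, X and 5. The closest, at chr14:63159186-63160416 on the (−) strand, was 95.6% identical over transcript bases 124 to 1352, with 41 substitutions. It ends 11 bases past the AATAAA shown above, and those on chromosomes 10 and 5 end 14 and 12 bases past it. A stretch of 60 bases across the join of exons 5 and 6 is shown, with the differing letters in capitals, to show how alike the loci are.
Snrpn exons 5 and 6: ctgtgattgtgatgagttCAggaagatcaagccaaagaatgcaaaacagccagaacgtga
chr14:63159846-63159905: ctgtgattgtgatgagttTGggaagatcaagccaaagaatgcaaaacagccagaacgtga

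On its own strand the chromosome 14 copy was assigned 211 reads in JXO and 228 in OXJ, 51.5% and 79.8% of the reads on the *Snrpn* exons up to the poly(A) signal. Its level was 11.2 in JXO and 10.7 in OXJ, and within 50 kb around it the tracks held 6 further reads in JXO and 0 in OXJ. The copies on chromosomes 10, X and 5 had no reads on or within 50 kb of them, where the tracks may not reach.

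Depth on the copy and on *Snrpn* differed along the transcript. Over exon 3 the copy had 38.9 reads per base in JXO and 41.1 in OXJ, above *Snrpn* with 29.8 and 18.2. Over exon 10 the copy had 1.32 and 0.0395, against 37.3 and 19.1 on the same aligned bases of *Snrpn*. Within 25 bases of an exon join the copy had 21.0 and 23.7 reads per base, and 50 or more bases from a join it had 13.4 and 12.9, while *Snrpn* had 29.5 and 21.0 near joins and 33.9 and 22.1 away from them. Over exon 6, where the crosses differed most on *Snrpn*, the copy had 28.1 in JXO and 28.8 in OXJ. The copy's log2 ratio was −0.12 (−0.52 to 0.27). The part of the copy in the *Snrpn* levels was not tested.

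**Figure D5:**
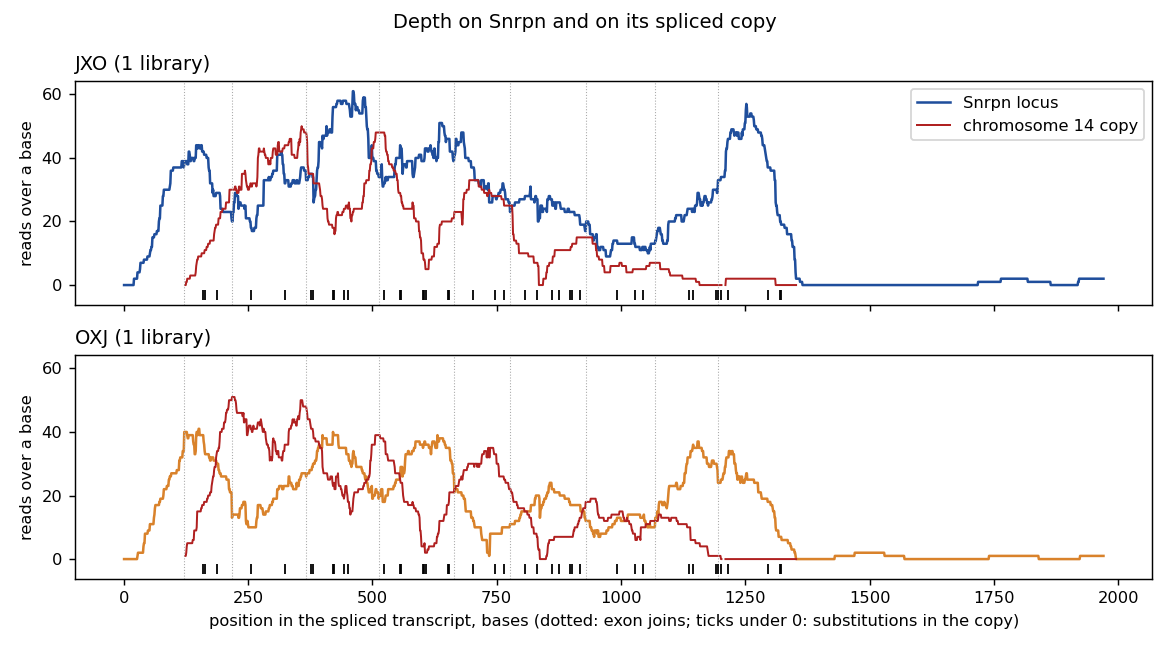
Reads over a base along the spliced transcript on the *Snrpn* locus and, where aligned, on its chromosome 14 copy, 1 panel per library. Dotted lines are exon joins and ticks the 41 substitutions. The copy exceeds *Snrpn* around several joins of exons 2 to 7 and is near 0 in exon 10, and *Snrpn* falls to near 0 beyond the poly(A) signal.

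Among 940 protein-coding genes inside the stretches, *Snrpn* exons stood above 62.6% in JXO and 61.0% in OXJ, where the medians were 4.01 and 3.35. The 3 protein-coding genes nearest to it in both libraries, by distance of log2 levels, were *Ttbk2*, a tau tubulin kinase gene, with 13.9 and 8.13, *3200002M19Rik* with 13.9 and 7.96, and *Osbpl1a*, an oxysterol-binding protein gene, with 12.7 and 8.76. Nearness in 2 libraries is a description of level only.

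Of 22 other Sm and LSm genes 1 lay inside the stretches, *Lsm5*, a subunit of the LSm rings, with 26.3 in JXO and 11.1 in OXJ. Of 11 genes of Sm ring assembly 1 did, *Clns1a*, whose product pICln holds Sm proteins before assembly, with 140 and 83.5. Their log2 ratios were 1.06 (0.55 to 1.59) and 0.57 (0.45 to 0.68), against a gene median of 0.30 and an upper quartile of 0.56. *Lsm5* was past 1.5-fold, as were 22.0% of the 718 genes compared, and 2 genes cannot describe a class. Among imprinted neighbours, the ubiquitin ligase gene *Ube3a* had 219 and 117, *Peg12* had 31.7 and 18.6, the ring finger gene *Mkrn3* had 1.83 and 1.65, and *Magel2* had 4 reads in JXO and 2 in OXJ. *Ndn* did not lie wholly inside a stretch and was not analysed here.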

How the data were processed

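RNA of 1 JXO and 1 OXJ MEF line was depleted of ribosomal RNA and sequenced as strand-marked read pairs of 100 bases. The submitters' processing notes name CASAVA 1.9 and TopHat 1.2.0 with mm9, and a read could be placed at 10 loci at most. Depth per base was scaled by the authors to 50000000 aligned reads, increased by 1 and deposited as log2 values, in 2 tracks per library. Here the log2 values were turned back to depth, and the smallest depth of a library was taken as 1 read. Depth was then a whole number of reads everywhere (largest relative deviation 3.62e-14). The track named forward was read as (−) strand RNA.

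Exons were those of GENCODE M1 (mm9) that belong to the transcript from the main start. That annotation holds neither *Snurf* nor *D7Ertd715e*, so planned exons and start of *D7Ertd715e* were replaced by 500 bases on either side of its position. Covered bases were joined into stretches over gaps of up to 50 kb, and genes wholly inside them were measured. *Snrpn* is counted by its main transcript, since its upstream part holds a longer gap. Steps were single-base changes of depth in 1 direction in both libraries that summed to at least 6 reads. Read pairs were counted as 200 read bases. Intervals cover counting error only, and reads with the same ends were not removed. The ratio interval was tested on simulated data. Copies were searched with BLAST 2.17.0, keeping alignments of at least 500 columns. Python 3.11.15 with numpy 2.4.6, scipy 1.17.1, pysam 0.24.0 and matplotlib 3.10.9 was used.

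The rule for the members uses position only, but the members, gene lists and planned measures were chosen with earlier results of these data known. Genes named are the members, all annotated elements and small RNAs of the unit, imprinted neighbours, Sm, LSm and assembly genes inside the stretches, the 3 protein-coding genes of nearest level, and spliced copies of *Snrpn*. Splice steps past the gene, the covered block, the part up to the poly(A) signal and the palindrome were chosen after the data were seen. Alternatives changed the averaging scale, the lowest depth, intron edges, windows and the scaling between libraries.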

Additional observations from a re-analysis of the deposited data

Results flagged for a closer look

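The tracks place reads on the spliced copy of *Snrpn* on chromosome 14, a position outside the unit. There were 211 on its own strand in JXO and 228 in OXJ, with 18 and 14 on the other strand. From which locus they were transcribed was not tested here, and the paper proposes *Snrpn* itself for reads on its chromosome 14 pseudogene. Within exons, depth rose at 106 bases of the copy in JXO and at 145 in OXJ, and 27.4% and 13.1% of these bases were also rises on *Snrpn*, against 13.9% and 11.6% of all 1212 bases compared.

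On the (+) strand at the second upstream exon OXJ had 4 reads, at chr7:67277157-67277295, of which 127 bases lie in the exon. JXO had 0 there.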

How the results depend on the processing

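With 1 library per cross no replicate could be left out. No paired analysis was possible because each group has 1 sample and the results come from no test. Of 57 values under alternative settings, 43 stayed inside the counting interval of the value reported, and 14 lay outside. Of the 57, 38 were levels and 19 ratios. The mean of log2 values gave lower levels: in JXO and OXJ 6.90 and 4.76 for exons, 2.76 and 1.33 past the end, 5.09 and 2.55 for *D7Ertd715e*, and 0.157 for introns of JXO. With at least 2 reads per base, introns of OXJ had 0.0582 and its upstream introns 0. Settings chosen after seeing the data gave 19.6 and 12.2 for exons up to the poly(A) signal, 6.23 and 2.88 for the covered block, and, for OXJ, 5.88 over exons B to E. A mean of log2 values cannot exceed the plain mean, so those levels had to fall, and the cause of the other shifts was not tested. All ratios of exons, introns, the part past the end and *D7Ertd715e* stayed above 0 under every scaling. At equal totals the median gene had 0.30, so a ratio above 0 does not set them apart, and the interval of introns held 0. The deposited scaling added 0.18 to each, as it does to every gene. Setting the median 10 kb bin equal gave 0.30 for exons. Only 1 transcript starts at the main start, so its shared exon bases gave the same level. The longest *D7Ertd715e* transcript was not run, since it has no entry in the annotation used. Each exon of the main transcript rests on 12.9 to 70.0 reads, and downstream exon B, downstream exon D of OXJ and the snoRNAs on fewer.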
